A study of Mus musculus with 6 samples.

Results

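JB1 is a male ESC line from an F1 hybrid of the JF1 x B6 cross, in which JF1 is *Mus musculus molossinus* and B6 is *Mus musculus domesticus*. ZFP57 and KAP1 binding were compared within this line, by setting the autosomal peaks of the ZFP57 ChIP-seq library against the autosomal peaks of the KAP1 library. A KAP1 peak was said to carry ZFP57 when at least 1 bp of it was shared with a ZFP57 peak. Of the 36174 autosomal KAP1 peaks, 5124 carried ZFP57, which is 14.2% (95% confidence interval 13.8 to 14.5%), and 31050 did not. Of the 9831 autosomal ZFP57 peaks, 6036 lay on a KAP1 peak, which is 61.4% (60.4 to 62.4%). The share was 34.4% (33.2 to 35.6%) among the 5782 ZFP57 peaks that held none of 11 recurring sequence words, which are described further on. Of the 24123 KAP1 peaks with none of these words, 5.94% (5.64 to 6.24%) carried ZFP57. The words were chosen on these lists, 6 of them from ZFP57 peaks on KAP1, so that both shares are partly set by that choice. Another 2539 KAP1 and 836 ZFP57 peaks were on the X and Y chromosomes and were left out.

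The study examined the binding of the ZFP57-KAP1 complex to both parental genomes in JB1 and in BJ1, the line of the reciprocal B6 x JF1 cross. Both lines were grown feeder-free on gelatin with LIF, and the labels give no deletion or treatment for either. The antibodies were Abcam ab45341 for ZFP57 and ab10483 for KAP1, and the series has 1 library for each line and antibody. The comparison therefore has no replicate, no test was made, and the exact Clopper-Pearson intervals given with the shares cover counting error only. 1 line stands for each cross, so that the line and the cross cannot be told apart. The labelled cell type could not be checked against marker genes, as the lists hold peaks and no expression. They also hold no score and no read count. The depth behind a peak is thus unknown, and a KAP1 peak without ZFP57 is one at which no ZFP57 peak was called.

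ZFP57 is a KRAB zinc-finger protein that binds the hexanucleotide TGCCGC when its CpG is methylated. It is best known for keeping the methylated allele of the imprinting control regions (ICRs) methylated in embryos and ESCs. KAP1, also known as TRIM28, is a co-repressor of many KRAB zinc-finger proteins, and brings to DNA the enzymes that deposit H3K9me3. Since many other members of that family also recruit KAP1, chiefly to retrotransposons, a KAP1 site need not be a ZFP57 site.

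The sequences that follow are of the mm9 (B6) genome, plus strand, and are centred on the ZFP57 peak, or on the KAP1 peak where there was no ZFP57. The first 4 are shown because they are the narrowest KAP1 peaks with a single ZFP57 peak at imprinted loci, leaving out windows over an annotated UTR. Peaks at *Peg10*, without TGCCGC, and *Trappc9* had the same width as those of *H19*, and the tie was broken by gene name. The last 3 are from the KAP1 peaks with the highest number of TGCCGC, 2 with ZFP57 and 1 without. Capitals mark TGCCGC and GGCCGC, a variant of the motif, on either strand.
*Gnas*, coding sequence, chr2:174125101-174125400: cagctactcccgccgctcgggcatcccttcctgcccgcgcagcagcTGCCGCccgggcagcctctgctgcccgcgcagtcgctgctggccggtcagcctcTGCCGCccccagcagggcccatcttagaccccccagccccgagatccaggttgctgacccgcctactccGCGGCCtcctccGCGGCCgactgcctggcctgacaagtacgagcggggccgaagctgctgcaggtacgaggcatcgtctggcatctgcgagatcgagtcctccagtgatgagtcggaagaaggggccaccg
*Zim1*, coding sequence, chr7:6630451-6630750: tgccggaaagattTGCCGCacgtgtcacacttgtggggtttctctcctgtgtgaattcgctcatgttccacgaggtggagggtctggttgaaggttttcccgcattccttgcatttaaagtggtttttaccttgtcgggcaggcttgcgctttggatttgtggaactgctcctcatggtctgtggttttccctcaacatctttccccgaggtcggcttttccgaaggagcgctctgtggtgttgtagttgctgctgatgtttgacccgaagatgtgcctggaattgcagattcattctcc
*H19*, intergenic, first peak, chr7:149765926-149766225: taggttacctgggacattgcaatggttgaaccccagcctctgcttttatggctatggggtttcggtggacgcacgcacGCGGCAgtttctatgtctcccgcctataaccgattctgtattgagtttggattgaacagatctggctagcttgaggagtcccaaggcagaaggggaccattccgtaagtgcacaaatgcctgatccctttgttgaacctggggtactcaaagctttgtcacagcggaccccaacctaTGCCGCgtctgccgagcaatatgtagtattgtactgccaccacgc
*H19*, intergenic, second peak, chr7:149767726-149768025: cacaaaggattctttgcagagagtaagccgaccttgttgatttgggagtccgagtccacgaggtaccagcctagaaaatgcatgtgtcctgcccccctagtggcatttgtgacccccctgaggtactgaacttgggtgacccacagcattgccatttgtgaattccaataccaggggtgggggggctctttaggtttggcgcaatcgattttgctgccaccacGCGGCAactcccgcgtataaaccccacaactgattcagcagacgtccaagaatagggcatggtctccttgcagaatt
*B930036N10Rik*, intergenic, with ZFP57, chr1:173420626-173420925: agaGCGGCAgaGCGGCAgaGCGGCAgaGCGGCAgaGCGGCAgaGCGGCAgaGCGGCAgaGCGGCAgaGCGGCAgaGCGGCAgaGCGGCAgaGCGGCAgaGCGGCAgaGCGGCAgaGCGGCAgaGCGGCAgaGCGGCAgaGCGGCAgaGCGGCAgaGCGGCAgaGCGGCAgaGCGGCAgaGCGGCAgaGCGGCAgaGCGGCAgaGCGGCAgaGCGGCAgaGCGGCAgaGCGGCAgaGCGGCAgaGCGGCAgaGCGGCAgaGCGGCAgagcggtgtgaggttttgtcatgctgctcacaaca
*Arhgap10*, intron, with ZFP57, chr8:79972801-79973100: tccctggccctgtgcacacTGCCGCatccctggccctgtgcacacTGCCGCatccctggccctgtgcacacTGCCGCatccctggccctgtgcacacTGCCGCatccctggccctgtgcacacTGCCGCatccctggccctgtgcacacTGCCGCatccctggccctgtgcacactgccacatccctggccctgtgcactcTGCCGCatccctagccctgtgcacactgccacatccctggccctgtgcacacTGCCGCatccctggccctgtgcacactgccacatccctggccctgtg
*Gm14094*, intergenic, without ZFP57, chr2:133059676-133059975: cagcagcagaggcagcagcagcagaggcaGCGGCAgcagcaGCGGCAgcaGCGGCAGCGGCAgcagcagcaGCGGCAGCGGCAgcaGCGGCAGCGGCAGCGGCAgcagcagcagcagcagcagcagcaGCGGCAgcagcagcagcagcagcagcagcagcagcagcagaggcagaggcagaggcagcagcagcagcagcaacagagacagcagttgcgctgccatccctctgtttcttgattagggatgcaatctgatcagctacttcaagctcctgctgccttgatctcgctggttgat

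The *Gnas* window held 2 TGCCGC and 2 GGCCGC, in a KAP1 peak of 450 bp with a ZFP57 peak of 300 bp. The *Zim1* window held a single TGCCGC. The 2 KAP1 peaks upstream of *H19*, each 1050 bp wide and each with a ZFP57 peak of 750 bp, had 2 and 1 TGCCGC in their windows. Near *B930036N10Rik*, the window was a tandem array of a short unit with 33 TGCCGC and the whole KAP1 peak held 37. The *Arhgap10* window was another tandem array, with 8 TGCCGC. In contrast, the *Gm14094* window, near the gene of that name, was a simple repeat with 10 TGCCGC, and its KAP1 peak of 450 bp had no ZFP57 in JB1.

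KAP1 peaks with ZFP57 were wider than those without. Their median width was 1350 bp (quartiles 900 and 2700 bp, n = 5124), against 600 bp (450 and 750 bp, n = 31050) for KAP1 peaks without ZFP57. In all, the former covered 9.20 Mb and the latter 23.3 Mb. The share of KAP1 peaks that carried ZFP57 was 1.48% (1.10 to 1.95%) at a width of 300 bp, 4.74% (4.30 to 5.21%) at 600 bp and 24.2% (22.6 to 25.8%) at 1050 to 1200 bp. It reached 72.1% (69.6 to 74.5%) at 2550 to 3000 bp and 75.3% (71.0 to 79.3%) at 3150 to 3600 bp, and was 57.7% (43.2 to 71.3%) in the 52 peaks of 6150 bp or more. A wide peak offers more bases to overlap. Counted per length, ZFP57 centres still went from 0.0365 per kb of KAP1 peak at 300 bp to 0.377 per kb at 2550 to 3000 bp, and were 0.113 per kb in the widest class.

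**Figure D1:**
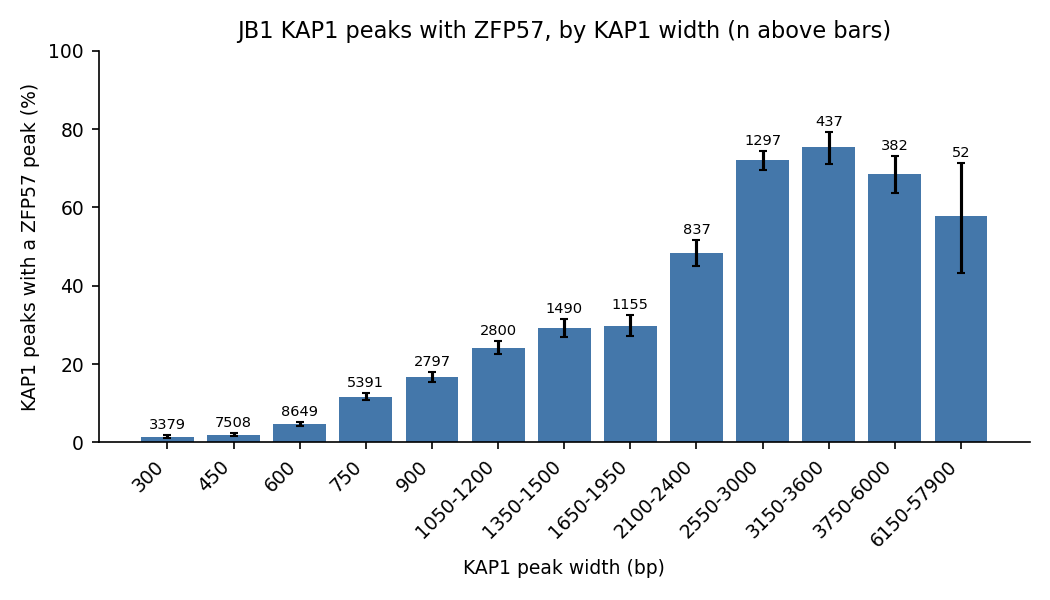
The share of JB1 autosomal KAP1 peaks that carried a ZFP57 peak (vertical axis, percent) is plotted for each class of KAP1 peak width (horizontal axis, bp). Bars are the shares, lines are exact 95% intervals and the numbers are KAP1 peaks per class. The share went from 1.48% at 300 bp to 75.3% at 3150 to 3600 bp.

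The widths of the KAP1 peaks with ZFP57 had 2 maxima, 1 at 750 bp (632 peaks) and another at 2550 bp (271 peaks), with 74 peaks at 2100 bp between them. Among the KAP1 peaks with ZFP57, 4345 held 1 ZFP57 peak, 651 held 2, 120 held 3, 7 held 4 and 1 held 5, so that 15.2% (14.2 to 16.2%) held 2 or more. Among the 1432 with none of the recurring words the share was 1.96% (1.30 to 2.81%), and with KAP1 peaks less than 1 kb apart merged it was 25.6%. Those with 2 had a median width of 2850 bp, and the centres of their ZFP57 peaks were a median of 1725 bp apart. In 506 of these 651 peaks (77.7%), the ZFP57 centres were on opposite sides of the KAP1 centre. Only 4 ZFP57 peaks touched 2 KAP1 peaks.

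ZFP57 centres were mostly near the middle of narrow KAP1 peaks and towards the sides of wide ones. Of the 6040 pairs of overlapping peaks, 5877 (97.3%) had the ZFP57 peak wholly inside the KAP1 peak, 198 had the same edges and 59 had a ZFP57 peak wider than the KAP1 peak. Over all widths, 43.1% (41.9 to 44.4%) of the ZFP57 centres were in the central part, when the KAP1 peak was split into 3 equal parts. In KAP1 peaks of 750 to 1200 bp, 77.3% (75.3 to 79.2%) were there. In peaks of 2100 to 3600 bp the share was 15.6% (14.2 to 17.1%), with 40.7% in the left part and 42.8% in the right part. The widths alone limit where a ZFP57 peak can lie in a narrow KAP1 peak. Over every 150 bp step at which each ZFP57 peak that was wholly inside could have been placed there, 57.1% of placements had the centre in the central part at 750 to 1200 bp, and 38.5% at 2100 to 3600 bp. The ZFP57 peaks wholly inside had 78.6% and 15.7% of their centres there. In the wide class the ZFP57 centre was a median of 525 bp from the nearest KAP1 edge. The same distance was 375 bp in the peaks of 750 to 1200 bp, and 750 bp in those of 3750 bp or more.

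**Figure D2:**
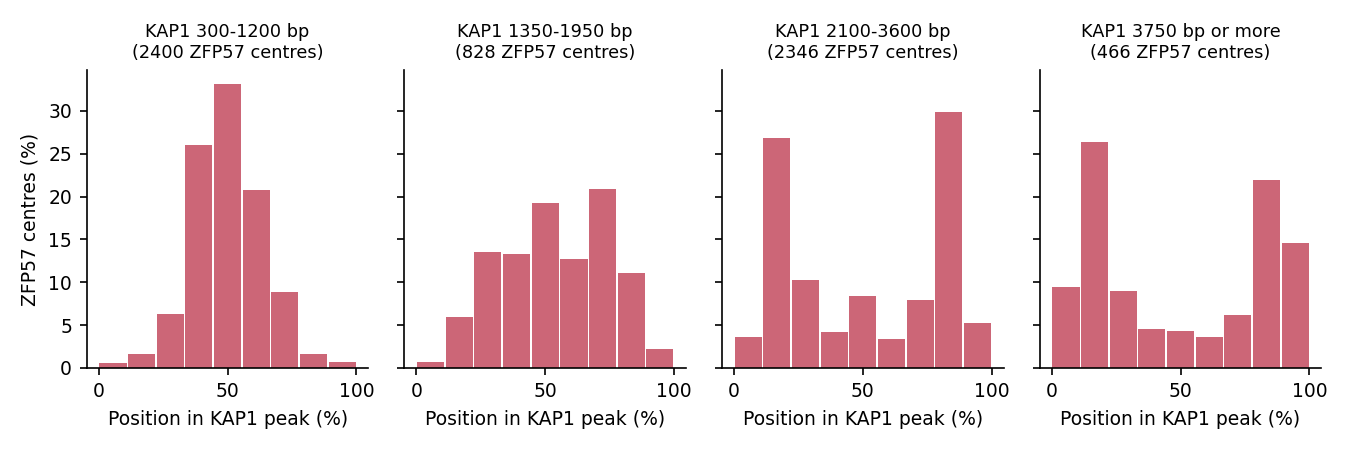
Position of the ZFP57 centre within the KAP1 peak, from its left edge (0%) to its right edge (100%), in 4 classes of KAP1 width. Bars give the percent of the ZFP57 centres of the class in each of 9 equal bins. In peaks of 300 to 1200 bp the middle bin was the highest (33.1%), while in peaks of 2100 to 3600 bp the second bin (26.9%) and the second-last bin (29.9%) were.

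ZFP57 peaks with and without KAP1 also differed in width. The median was 450 bp with KAP1 and 300 bp without. The share that lay on a KAP1 peak was 32.6% (30.9 to 34.2%) for ZFP57 peaks of 300 bp and 88.4% (84.9 to 91.4%) for those of 900 bp. It was 23.5% (14.8 to 34.2%) among the 81 ZFP57 peaks of 2100 bp or more. Of the 62 peaks of this width without KAP1, 37 were on chromosome 14. This chromosome had the lowest share of ZFP57 peaks on KAP1, 45.8%, followed by chromosome 1 with 50.3%, and chromosome 11 had the highest with 69.1%. The share of KAP1 peaks with ZFP57 varied less, from 12.8% on chromosome 7 to 16.8% on chromosome 14. The ZFP57 peaks without KAP1 were a median of 27301 bp from the nearest KAP1 peak, and 126 of 3795 (3.32%) had one within 1 kb.

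The TGCCGC motif was searched on both strands as an exact match wholly inside the peak. It was present in 88.3% (87.3 to 89.1%) of the KAP1 peaks with ZFP57 and in 22.4% (21.9 to 22.8%) of those without. The share was 3.64% in all autosomal windows of 600 bp and 7.79% in all those of 1350 bp, the median widths of the peak classes. With GGCCGC added, the shares were 92.7% and 30.5%. Closely spaced motifs, that is at least 2 of either kind with starts less than 38 bp apart, were found in 21.3% (20.2 to 22.5%) of the KAP1 peaks with ZFP57 and in 2.96% (2.77 to 3.15%) of those without. The difference remained at a given width: in KAP1 peaks of 750 to 1200 bp, 86.8% of those with ZFP57 and 25.9% of those without held TGCCGC. The median CpG density was 27.3 per kb with ZFP57 and 17.3 per kb without, and the median GC content was 47.0% and 46.2%.

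The ZFP57 peaks held the motif where KAP1 was present. TGCCGC was found in 78.1% (77.0 to 79.1%) of the 6036 ZFP57 peaks on KAP1 and in 1.55% (1.19 to 2.00%) of the 3795 without KAP1. The share in all autosomal windows of 450 bp was 2.76%. Among the ZFP57 peaks on KAP1 that had a TGCCGC, the nearest was a median of 61.0 bp from the centre of the peak, which is less than the 150 bp step of the peak edges. The median CpG density was 35.6 per kb in ZFP57 peaks with KAP1 and 6.67 per kb in those without.

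The share of KAP1 peaks with ZFP57 was higher the more TGCCGC they held, up to 3. It was 2.44% (2.25 to 2.64%) in the 24710 KAP1 peaks with none, 25.8% (24.8 to 26.8%) with 1, 55.6% (54.0 to 57.3%) with 2 and 78.9% (75.9 to 81.7%) with 3. All 8 KAP1 peaks with 11 or more carried ZFP57. A wide peak holds more motifs, but within KAP1 peaks of 450 to 1200 bp the shares were 2.12%, 23.8%, 39.0% and 63.3% for 0, 1, 2 and 3 motifs. At the other end, 6942 KAP1 peaks held TGCCGC and had no ZFP57 peak, and 602 had ZFP57 without any TGCCGC.

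Many KAP1 peaks shared sequence. To describe this, the 24-base words found in most peaks were taken in turn from the ZFP57 peaks on KAP1 and from the KAP1 peaks without ZFP57, 6 from each, which gave 11 distinct words. They were chosen on these lists, so that their shares describe the lists. The first word lies in a stretch known from the long terminal repeat of IAP elements, a family of retrotransposons that KAP1 silences in ESCs. No repeat annotation was used here. It is shown with the bases that follow it in the most common copies, because the hexamer in capitals falls at the place of the ZFP57 motif. The hexamers are the intact motif and 2 changed forms.
Copies with TGCCGC: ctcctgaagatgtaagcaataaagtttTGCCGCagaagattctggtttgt
Copies with TGCCAC: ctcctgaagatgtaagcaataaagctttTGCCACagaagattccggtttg
Copies with TGCTGC: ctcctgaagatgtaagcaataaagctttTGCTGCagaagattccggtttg

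The word had 4849 autosomal copies in mm9. Of these, 4834 (99.7%) were in a KAP1 peak and 2665 (55.0%) in a ZFP57 peak. It was in 2614 KAP1 peaks with ZFP57 (51.0%) and in 1480 KAP1 peaks without (4.77%). None of the 3795 ZFP57 peaks without KAP1 held it, which allows a share of up to 0.0791%. That count was nearly fixed in advance, since almost every copy lay in a KAP1 peak. KAP1 was thus found at nearly every copy, and ZFP57 at a part of them. The copies followed by TGCCGC were in a ZFP57 peak in 57.3% of cases (55.8 to 58.8%, n = 4213). The share was 25.5% (18.8 to 33.2%, n = 153) for TGCCAC and 32.8% (24.6 to 41.9%, n = 122) for TGCTGC. KAP1 lay on 4203, 152 and 122 of these copies. The 357 copies in KAP1 that were followed by none of these hexamers had ZFP57 in 47.9% of cases (42.6 to 53.2%). Copies with the intact motif thus had a higher share with ZFP57 than those with either changed form, whose intervals overlapped each other, while KAP1 was at nearly all copies of each form. The JF1 sequence of the copies was not analysed here, and a copy read in mm9 may differ on the JF1 allele.

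Copies of the word also occurred in pairs, on the same strand and 1 to 10 kb apart, as the terminal repeats of an element would be. There were 1380 such pairs, a median of 4294 bp apart. Of these, 824 were 2000 to 5000 bp apart and 419 were 6500 to 7000 bp apart. ZFP57 was at the upstream copy in 71.4% of the pairs (69.0 to 73.8%) and at the downstream copy in 49.6% (46.9 to 52.2%). The shares were 69.1% and 44.1% at 2000 to 5000 bp, and 76.4% and 56.6% at 6500 to 7000 bp. The 1415 lone copies, with no other within 10 kb, had ZFP57 in 44.7% of cases (42.1 to 47.4%). The remaining 674 copies, in groups or in pairs of another strand or distance, had it in 53.7% and are in neither class. Both copies had it in 558 pairs, the upstream copy alone in 428, the downstream copy alone in 126 and neither in 268. The KAP1 peak on an upstream copy reached a median of 430 bp upstream and 2283 bp downstream of it. On a downstream copy it reached 2080 bp upstream and 306 bp downstream, and on a lone copy 440 and 296 bp. The median widths of these peaks were 2700 and 2400 bp in pairs and 750 bp at lone copies. In 413 of the pairs both copies were in 1 KAP1 peak, which counts for both and reaches the other copy by construction. In the remaining 967 pairs the peak on the upstream copy reached 412 bp upstream and 2162 bp downstream, and the peak on the downstream copy 1810 and 302 bp. ZFP57 was at 68.8% of the upstream and 49.4% of the downstream copies of those pairs.

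**Figure D3:**
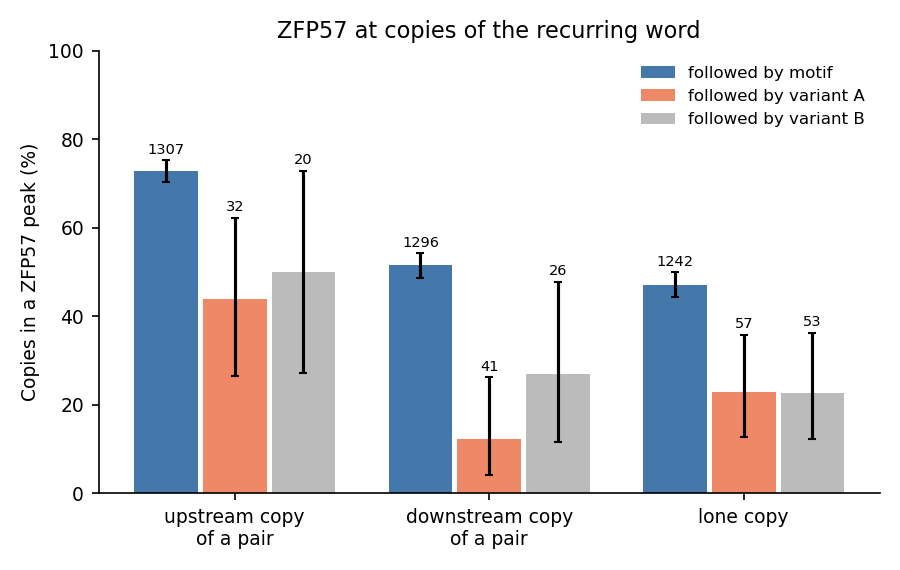
The percent of copies of the first recurring word that lay in a ZFP57 peak (vertical axis) is shown for upstream and downstream copies of a pair and for lone copies, by the hexamer that follows. Motif stands for TGCCGC, variant A for TGCCAC and variant B for TGCTGC, with exact 95% intervals as lines and the number of copies above each bar. The 674 copies that were neither lone nor in such a pair are not drawn. Copies with the intact motif had ZFP57 in 72.8%, 51.5% and 47.1% of cases, above those with either variant in each class, although the intervals of the variants were wide.

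The difference between hexamers was seen in each of these classes. Among lone copies, ZFP57 was at 47.1% (44.3 to 49.9%, n = 1242) of those with TGCCGC, 22.8% (12.7 to 35.8%, n = 57) of those with TGCCAC and 22.6% (12.3 to 36.2%, n = 53) of those with TGCTGC. Among downstream copies the shares were 51.5%, 12.2% and 26.9%. For upstream copies they were 72.8%, 43.8% and 50.0%, with 20 to 32 copies in the variant classes, and the interval of TGCTGC (27.2 to 72.8%) reached that of TGCCGC (70.3 to 75.2%). The reads were 50 bp long, and how reads that match several copies were placed is not given in the sources used here. Its part in the ZFP57 and KAP1 peaks of these copies was not tested.

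The words taken from KAP1 peaks without ZFP57 were also found in peaks with ZFP57. One of the 6 was also among the words taken from ZFP57 peaks, and was in 56.6% of the KAP1 peaks with ZFP57 and 6.53% of those without. Another was in 9.72% and 3.96%, and a further one in 3.34% and 3.19%. The remaining 3 were in 2.58% and 3.84%, 0.527% and 3.59%, and 0.312% and 3.45%. The first of these 3 had 1347 copies, of which 1325 (98.4%) were in a KAP1 peak and none in a ZFP57 peak, a count that allows a share of up to 0.223%. ZFP57 was elsewhere in 132 of the 1325 KAP1 peaks that held this word (9.96%), against 14.2% of all KAP1 peaks. The last had 6073 copies, 2361 of them (38.9%) in KAP1 and 14 (0.231%) in ZFP57, and 1.47% of its KAP1 peaks carried ZFP57. At least 1 of the 11 words was found in 72.1% (70.8 to 73.3%) of the KAP1 peaks with ZFP57 and in 26.9% (26.4 to 27.4%) of those without. In peaks of 2100 to 3600 bp the shares were 94.9% and 69.7%. The wide KAP1 peaks with ZFP57 were therefore mostly peaks with recurring sequence.

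Of the 24123 KAP1 peaks with none of the 11 words, 1432 carried ZFP57, which is 5.94% (5.64 to 6.24%). Their median width was 900 bp, and 67.5% (65.0 to 69.9%) of the ZFP57 centres were in the central part, against a median width of 1950 bp and a central share of 35.3% (34.0 to 36.8%) in the peaks with a word. At a given width the shares were closer. They were 81.0% (77.9 to 83.9%) with no word and 75% (72.4 to 77.6%) with a word in KAP1 peaks of 750 to 1200 bp. In those of 2100 bp or more they were 24.4% (17.9 to 31.8%) and 14.4% (13.1 to 15.8%), so that the position near the edges was also found without a word. TGCCGC was in 65.9% of these 1432 peaks, against 16.4% of the 22691 peaks with no word and no ZFP57. Closely spaced motifs were in 26.5% and 3.08%. The share with ZFP57 was 2.51% with no TGCCGC, 12.4% with 1, 35.9% with 2, 58.2% with 3 and 66.3% with 4 or more. The order by motif number was thus also found in peaks with none of the 11 words. Such peaks can still hold other repeats, as no repeat annotation was used. The tandem arrays near *B930036N10Rik* and in *Arhgap10*, for example, held none of the words.

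**Figure D4:**
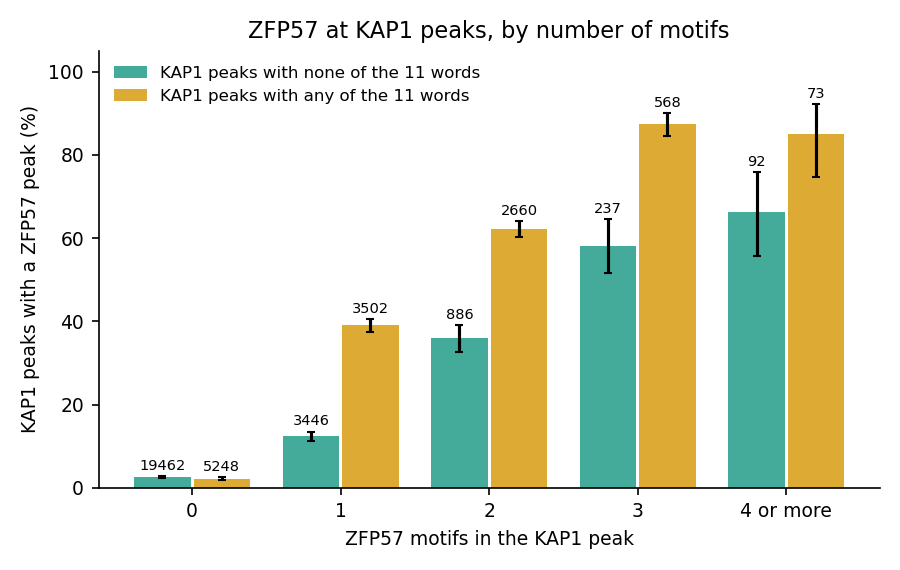
The percent of KAP1 peaks with a ZFP57 peak (vertical axis) is plotted against the number of TGCCGC in the KAP1 peak (horizontal axis), for peaks with none and with any of the 11 recurring words. Lines are exact 95% intervals and the numbers are KAP1 peaks. With 3 motifs the shares were 58.2% without and 87.5% with a word, and with no motif they were 2.51% and 2.17%.

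By GENCODE M1, most KAP1 peaks of both classes were intergenic. The midpoint of the peak was intergenic in 76.3% (75.1 to 77.5%) of the peaks with ZFP57 and in 73.1% (72.6 to 73.6%) of those without, and in an intron in 19.9% and 21.9%. In KAP1 peaks of 450 to 1200 bp alone, the intergenic shares were 73.2% and 73.0% with and without ZFP57, with overlapping intervals. Over all widths, the midpoint was within 1 kb of a transcription start, here called a promoter, in 2.07% (1.70 to 2.5%) with ZFP57 and 3.62% (3.41 to 3.83%) without. At 450 to 1200 bp the promoter shares were 3.13% (2.46 to 3.92%) and 3.89% (3.65 to 4.14%), also with overlapping intervals. Over all widths, coding sequence held 1.19% and 0.767%. The share of KAP1 peaks that carried ZFP57 was 8.62% (7.11 to 10.3%) at promoters and 20.4% (16 to 25.4%) in coding sequence, against 14.7% (14.3 to 15.1%) between genes. The nearest transcription start was a median of 35.8 kb away with ZFP57 and 30.3 kb without.

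These contexts moved with the recurring words. Among KAP1 peaks with none of the words, the promoter share was 5.80% (4.64 to 7.13%) with ZFP57 and 4.62% (4.35 to 4.90%) without, so that its direction turned and the intervals overlapped. Coding sequence held 4.19% (3.21 to 5.36%) and 1.02% (0.896 to 1.16%) of these peaks. The intergenic share turned too, at 67.8% (65.3 to 70.2%) with ZFP57 and 71.4% (70.8 to 72.0%) without, and these intervals did not overlap. Where none of the words was found, ZFP57 was at 20.5% of the KAP1 peaks in coding sequence, 7.33% of those at promoters and 5.65% of those between genes. The median CpG density of the same classes was 28.0, 30.0 and 13.3 per kb.

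The ICRs were the best known members among the KAP1 peaks with ZFP57. Of 37 imprinted gene names, 34 were found in the annotation. A KAP1 peak was over the gene or within 5 kb for 29 of these, and ZFP57 lay on such a peak for 24 of the 29 (82.8%). Of all 34653 autosomal genes, 7757 had KAP1 and 1517 of those (19.6%) had ZFP57 on it. The imprinted genes were listed because many are known ZFP57 targets, so that this count is not independent evidence. Their 34 different KAP1 peaks comprised 22 with ZFP57, of a median width of 1200 bp (450 to 2850 bp), and 12 without, of a median of 600 bp (450 to 2100 bp). None of the 22 held a recurring word, and 21 of them had a single ZFP57 peak.

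At *Snrpn*, a paternally expressed gene of the Prader-Willi region, the KAP1 and ZFP57 peaks had the same edges, chr7:67148701-67150350, and 10 TGCCGC. The promoter peak of *Mest*, another paternally expressed gene, was the widest of the imprinted KAP1 peaks at 2850 bp (chr6:30686551-30689400), and had a ZFP57 peak of 2250 bp and 12 TGCCGC. *Herc3*/*Nap1l5* again had equal edges, at 900 bp. The *Peg3* promoter peak of 1950 bp was the one with 2 ZFP57 peaks, of 750 and 600 bp, with centres 300 bp left and 525 bp right of the KAP1 centre. *Airn*, the antisense transcript that silences *Igf2r*, had a KAP1 peak of 1950 bp and a ZFP57 peak of 1650 bp. ZFP57 covered less of other imprinted KAP1 peaks, with 600 of 1350 bp at a *Gnas*/*Nespas* peak and at *Peg10*/*Sgce*, and 300 of 900 bp at *Zim1*, which encodes a zinc finger protein.

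**Figure D5:**
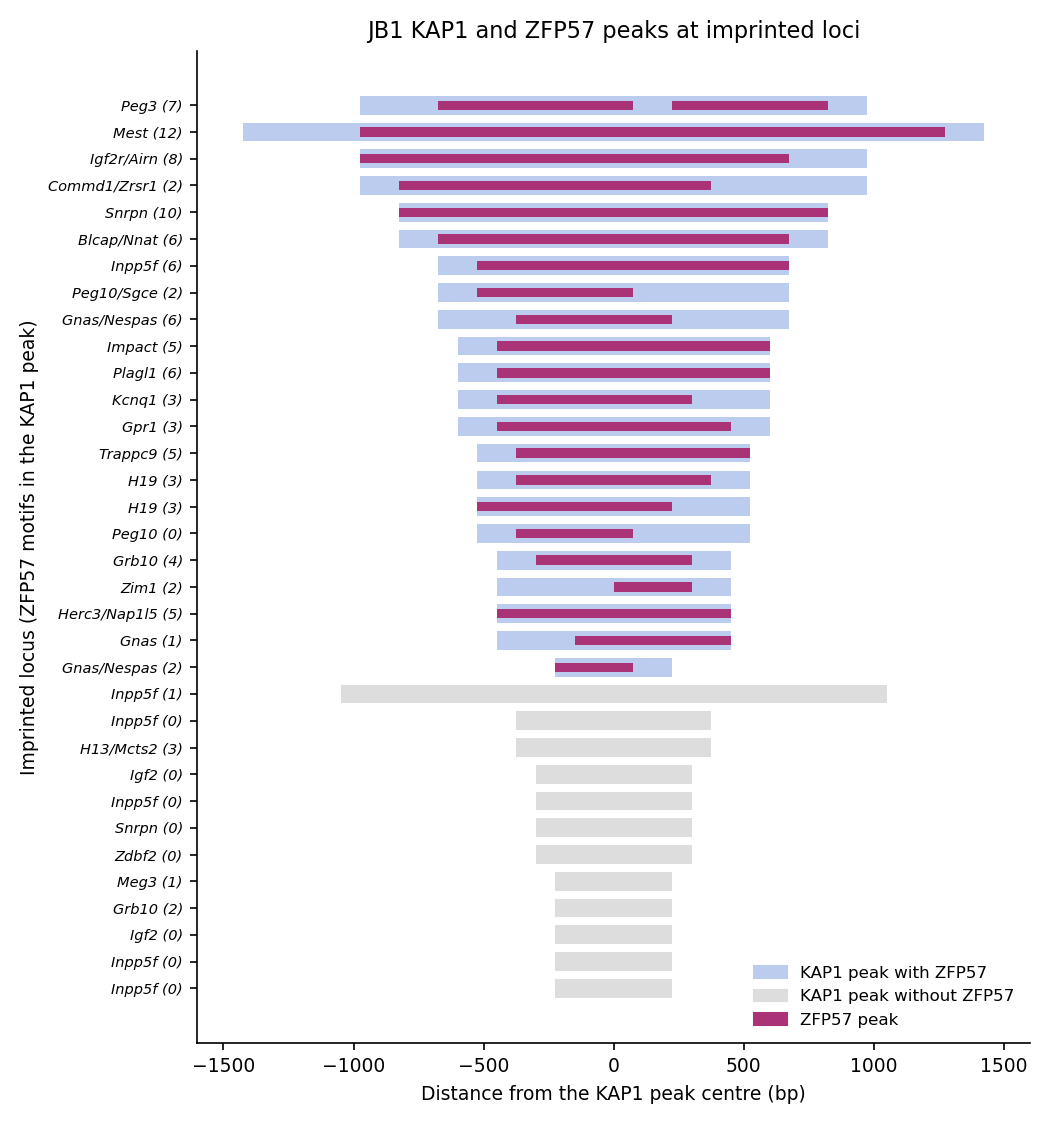
KAP1 peaks (wide bars) and ZFP57 peaks (thin bars) at imprinted loci, drawn in bp from the centre of each KAP1 peak, with the number of TGCCGC in brackets. The 22 KAP1 peaks with ZFP57 are in the upper part and the 12 without in the lower part. ZFP57 was centred a median of 75 bp from the KAP1 centre.

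Of the 22 peaks, 21 held TGCCGC, with a median of 4.50 and up to 12. The exception was a KAP1 peak of 1050 bp in the coding sequence of *Peg10*, a gene derived from a retrotransposon, at chr6:4705651-4706700. It had a ZFP57 peak of 450 bp and neither motif. The other *Peg10* peak, over the promoter it shares with *Sgce*, held 2 TGCCGC. Of the 12 KAP1 peaks without ZFP57, 4 held TGCCGC. The peak at the promoter of *Mcts2*, inside *H13*, was 750 bp wide with 3 TGCCGC (chr2:152512201-152512950), and the nearest ZFP57 peak was 476 kb away. At the *Meg3* promoter, a KAP1 peak of 450 bp had 1 TGCCGC, and the nearest ZFP57 peak was 11.7 kb away. The peak over a UTR of *Grb10* held 2. None of these last 3 KAP1 peaks was found in BJ1. *Ndn*, *Cdkn1c*, *Dlk1*, *Rasgrf1* and *Slc38a4* had no KAP1 peak over the gene or within 5 kb. A control region that lies farther from its gene is outside this window and was not counted.

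*Inpp5f* had 6 KAP1 peaks, and ZFP57 was on 1 of them, a promoter peak of 1350 bp with 6 TGCCGC. The other 5 were 450 to 2100 bp wide, and 3 of them held a recurring word. At *Gnas*, the gene of the stimulatory G protein alpha subunit, all 3 KAP1 peaks had ZFP57. They were 1350, 900 and 450 bp wide and held 6, 1 and 2 TGCCGC. *Igf2*, a growth factor gene, had 2 KAP1 peaks without ZFP57, of 450 and 600 bp and without TGCCGC, while both KAP1 peaks next to *H19* had ZFP57.

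ZFP57 on KAP1 was also counted in other groups of genes. Of 336 genes named Zfp and a number, most of which encode zinc-finger proteins, 123 (36.6%) had a KAP1 peak over the gene or within 5 kb, against 22.4% of all autosomal genes and 26.5% of the protein-coding ones. Their median length of 14.3 kb was close to the 15.5 kb of protein-coding genes and above the 5.92 kb of all genes. ZFP57 was on such a peak in 22 of the 123 (17.9%), against 19.6% of all genes with KAP1. Of all 336 genes this was 6.55%, against 4.38% of all autosomal genes and 5.21% of the protein-coding ones. A KAP1 peak with ZFP57 was in coding sequence in *Zfp787*, *Zfp668*, *Zfp13*, *Zfp180*, *Zfp553* and *Zfp11*, with widths of 750, 900, 1050, 1500, 1800 and 2550 bp and 2, 2, 3, 1, 2 and 5 TGCCGC, in this order. *Zfp445*, whose protein also binds ICRs, had 5 KAP1 peaks, and the single one with ZFP57 was an intronic peak of 900 bp without TGCCGC. Of 14 genes of the repressor and of DNA methylation, *Trim28* alone had a KAP1 peak, of 450 bp and without ZFP57.

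The groups that follow are small, and are set against the 22.4% of all genes with KAP1 and the 19.6% of those with ZFP57 on it, so that little can be read from 0 or 1 of 4 genes. Of 17 pluripotency genes in the annotation, 4 (23.5%) had KAP1, namely *Esrrb*, *Tbx3*, *Lin28a* and *Zfp42*. Only the *Zfp42* peak had ZFP57. It was 9000 bp wide (chr8:44396851-44405850), lay beyond the 5' end of this gene of the naive state, and held 2 TGCCGC and 1 ZFP57 peak. Of 12 germline genes, 4 (33.3%) had KAP1, *Dazl*, *Sycp1*, *Asz1* and *Stk31*, all without ZFP57. *Sycp1* and *Mael* had a ZFP57 peak that was not on KAP1. Of the Hox genes, 3 of the 10 in the Hoxb cluster had KAP1, and *Hoxb3* had ZFP57 on it, in a KAP1 peak of 600 bp with 2 TGCCGC. None of the Hoxa, Hoxc and Hoxd genes had a KAP1 peak. Among the clustered protocadherins, *Pcdha11* had 12 KAP1 peaks, 1 of them with ZFP57, and 3 of 22 Pcdhb genes had KAP1, none with ZFP57.

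The widest KAP1 peak with ZFP57 was 29700 bp, over *Dux*, a gene of the early cleavage embryo that lies in tandem copies (chr10:57668551-57698250), and a single ZFP57 peak of 28800 bp covered nearly all of it. The next was 12150 bp, 239 kb from *Gm13988*, with 4 ZFP57 peaks of 450 to 1200 bp and 9 TGCCGC. It was followed by an 11250 bp peak at *Gm13036* on chromosome 4, with 1 ZFP57 peak of 1050 bp. Next came peaks of 9900 and 9750 bp, near *Gm16363* and *Gm14400* on chromosome 2, with 3 ZFP57 peaks each. The widest KAP1 peak without ZFP57 was 57900 bp at *1700095A21Rik* on chromosome 4 (chr4:145677751-145735650), with 5 TGCCGC. Of the 4 that came next, of 12150 to 18150 bp, those at *Gm16889*, *1700029I01Rik* and *Gm13136* were on the same chromosome and the remaining one, 12.7 kb from *Pisd-ps1*, was on chromosome 11. A wide KAP1 peak was therefore found with and without ZFP57, and how reads of tandem copies were placed was not tested.

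The KAP1 peak with the most ZFP57 peaks, 5, was in an intron of *Zcwpw1*, 4050 bp wide (chr5:138253351-138257400), and its ZFP57 peaks were 300 to 600 bp. Those with 4 ZFP57 peaks were in introns of *Kcnq3* and *Arfip1*, and between genes nearest to *Gm12130*, *Satb1*, *Gm13988*, *Gm14445* and *Trpc6*. All of these held a recurring word. The KAP1 peaks with most TGCCGC among those with ZFP57 held 37 (near *B930036N10Rik*), 19 (*Arhgap10*), 14 (*Krtap4-16*), 14 (*Actl6a*) and 12 (*Mest*), none with a recurring word. Among those without ZFP57, the highest numbers were 10 (near *Gm14094*), 8 (*Fam65b*), 6 (near *Nkx2-5*), 6 (near *Alk*) and 6 (*Ehd4*).

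BJ1, a line with its own libraries, gave a second look at the same sites. A KAP1 peak was also found in BJ1 at 95.5% (94.9 to 96.0%) of the JB1 KAP1 peaks with ZFP57 and at 84.6% (84.2 to 85.0%) of those without. At 300 to 600 bp, the order was the other way round, with 69.6% (65.8 to 73.3%) and 77.6% (77.0 to 78.1%). A BJ1 ZFP57 peak was on 10.3% (9.50 to 11.2%) of the JB1 KAP1 peaks with ZFP57 and on 0.351% (0.288 to 0.423%) of those without. The share was 21.6% (19.5 to 23.9%) at peaks with none of the recurring words and 5.93% (5.19 to 6.74%) at those with a word. At the imprinted loci, BJ1 had ZFP57 on 18 of the 22 KAP1 peaks that had it in JB1, and on 1 of the 12 that did not. Most JB1 KAP1 sites with ZFP57 thus had KAP1 in BJ1 without a ZFP57 peak. The depths of these libraries are unknown, and their part in this difference was not tested.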

How the data were processed

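ZFP57 and KAP1 binding in JB1 ESCs was taken from the peak lists of 1 ChIP-seq library each, and the 2 peak lists of BJ1 served as a second look. Input libraries (2) did not enter. The authors trimmed the 50 bp single-end reads with CASAVA (1.8.2) and Trim Galore, aligned them to mm9 with Bowtie (0.12.7) and called peaks with MACS at a *P*-value of 1e-05. The lists as deposited by the authors hold chromosome, start and end only, counted from 1, on a 150 bp grid. MACS does not usually give edges on a fixed grid, and whether the lists were binned after peak calling is not given in the sources used here, so that widths, offsets and edge distances are those of the lists. They give neither scores nor read counts, so that depth is unknown and width is known in steps of 150 bp.

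Pairs of peaks overlapping by 1 bp or more were found in Python (3.11.15) with numpy (2.4.6) and pandas (2.3.3). Shares have exact Clopper-Pearson 95% intervals (scipy 1.17.1), and a count of 0 is given with the share that 3 counts would make. No test was made, since each antibody had 1 library. TGCCGC and GGCCGC were searched as exact matches on both strands of mm9 (pysam 0.24.0), and genes were taken from GENCODE M1. Context was read at the midpoint of the peak, with promoter before coding sequence, UTR, other exon, intron and intergenic. Recurring sequences were described by 24-base words, taken one after the other as the word found in most of the peaks not yet holding one. The overlap counts were tested on simulated peaks with known answers.

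The genes and peaks named are imprinted loci with a peak within 5 kb, the 5 widest KAP1 peaks with and without ZFP57, those with most ZFP57 peaks or TGCCGC, and lists of repressor, pluripotency, germline, Zfp, protocadherin and Hox genes. The members and lists were chosen with earlier results of these data known, and the words, and all values without them, were chosen after seeing the data.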

Additional observations from a re-analysis of the deposited data

How the results depend on the processing

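The order of KAP1 peaks with and without ZFP57 in width, motifs, gene context and presence in BJ1 held in direction under the settings tried, except for gene context in peaks with none of the recurring words and for BJ1 in KAP1 peaks of 300 to 600 bp, where 69.6% with ZFP57 and 77.6% without were present. At matched width the intervals of the promoter and intergenic shares overlapped, and the other contexts were not run at matched width. Requiring the ZFP57 centre inside the KAP1 peak, or an overlap of 50% of the narrower peak, left the overlap, width and number results within their intervals, and adding the sex chromosomes left the overlap and width results within theirs. With the widest 50% of each list, 17.5% of the KAP1 peaks had ZFP57 and 73.6% of the ZFP57 peaks had KAP1. With KAP1 peaks less than 1 kb apart merged, 16.5% had ZFP57, their median width was 2700 bp and 25.6% of them held 2 or more ZFP57 peaks. With a KAP1 peak allowed within 1 kb, 62.7% of the ZFP57 peaks had KAP1. ZFP57 centres were in the central of 3 equal parts of the peak in 53.2% of cases in KAP1 peaks with exactly 1 ZFP57 peak and in 33.9% in KAP1 peaks of at least 900 bp, against 43.1% over all.

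In peaks with none of the 11 words, an alternative chosen after seeing the data, 5.94% of the KAP1 peaks had ZFP57 and 34.4% of the ZFP57 peaks had KAP1. Both shares are partly set by the choice of words, as 6 of them came from ZFP57 peaks on KAP1. The median width of those KAP1 peaks with ZFP57 was 900 bp, 67.5% of the ZFP57 centres were in the central part and 1.96% of the peaks held 2 or more. Motifs were in 80.9% with ZFP57 and 27.2% without, and BJ1 had KAP1 at 84.2% and 79.5%. The promoter shares were 5.80% with and 4.62% without ZFP57 and the intergenic shares 67.8% and 71.4%. Both turned the order of the peaks with and without ZFP57.

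Promoter shares with and without ZFP57 were 1.35% and 2.41% within 500 bp of a start, 4.64% and 6.79% within 2.5 kb, 1.15% and 2.41% with protein-coding genes only, 3.13% (2.46 to 3.92%) and 3.89% (3.65 to 4.14%) in KAP1 peaks of 450 to 1200 bp, and, in an alternative chosen after seeing the data, 3.34% and 4.39% with any base of the peak counted. The intergenic shares were 74.8% and 71.6% within 2.5 kb and 78.9% and 76.3% with protein-coding genes only. They were 76.6% and 73.7% within 500 bp. At 450 to 1200 bp they were 73.2% (71.3 to 75%) and 73.0% (72.4 to 73.5%), within their intervals of each other. Pairs of copies of the first word in separate KAP1 peaks, also chosen after seeing the data, kept the directions given above. With TGCCGC alone, 88.3% and 22.4% of the KAP1 peaks with and without ZFP57 held a motif. In the central 300 bp of the peak, 47.1% and 20.5% did. Per kb of peak there were 1.32 and 0.684 motifs.

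No paired analysis was possible because each antibody had 1 library and no test was made. Leaving out a replicate was not possible for the same reason. The lists carry no depth, so that absence of a peak is absence of a call, and peak edges are known in steps of 150 bp only.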
